A study of Mus musculus with 12 samples.

Results

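The small leucine-rich proteoglycans (SLRPs) were followed through osteogenic culture of MC3T3 sc4 cells. The family was taken as 10 genes, chosen by name: biglycan (Bgn), decorin (Dcn), asporin (Aspn), fibromodulin (Fmod), lumican (Lum), prolargin (Prelp), osteomodulin (Omd), keratocan (Kera), osteoglycin (Ogn) and podocan (Podn). All 10 were present among the 23358 rows of the gene count table, and 9 of them passed the filter on low counts, which asked for a CPM (counts scaled to the library's total) of at least 1 in at least 2 libraries. Kera did not pass. MC3T3 sc4 is a subclone of a mouse calvarial pre-osteoblast line of C57BL/6 origin, and every library came from that line at passage 12. All cells received osteogenic medium with 50 µg/ml ascorbic acid, 4 mM β-glycerol phosphate and 10% serum. The groups were GSK126 at 5 µM with 10 or 50 ng/ml of bone morphogenetic protein 2 (BMP2), GSK126 alone, BMP2 alone at 10 or 50 ng/ml, and vehicle, each sampled on day 6 and on day 1. GSK126 inhibits EZH2, the histone H3 methyltransferase of Polycomb repressive complex 2. Each of the 12 conditions had 1 library, and differences between 2 single libraries carry no replicate check. Tests therefore used the factorial layout, where each agent is carried by several libraries. Nothing in the labels says that separate cultures were used, and the p-values cover no more than the spread among these 12 libraries, which may be technical. In the tests of each agent, that spread is what the separate effects of GSK126 and of each BMP2 dose within a day leave over. A joint effect of both agents that differs from the sum of their log2 effects is therefore counted as spread, and replicate spread was not measured.

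SLRPs are secreted proteins with a core of leucine-rich repeats that binds collagen, and most carry chondroitin, dermatan or keratan sulfate chains. They regulate how collagen fibrils grow in bone, tendon, skin and cornea, and several bind growth factors of the TGF-β and BMP families. Bgn, Dcn and Aspn form class I, in which Bgn and Dcn carry chondroitin or dermatan sulfate and Aspn carries no such chain. Fmod, Lum, Prelp, Omd and Kera form class II, the class with keratan sulfate or tyrosine sulfate. Ogn belongs to class III and Podn to class V.

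Several members are neighbours in the genome. In the deposited positions (mm10), Aspn (chr13:49544443-49567562), Omd (chr13:49582747-49592609) and Ogn (chr13:49608071-49624500) followed each other on the plus strand of chromosome 13 with 15.2 and 15.5 kb between them. Dcn (chr10:97479500-97518162), Lum (chr10:97565501-97572703) and Kera (chr10:97607205-97613688) did so on chromosome 10, 47.3 and 34.5 kb apart. Prelp (chr1:133910304-133921401, minus strand) and Fmod (chr1:134037515-134048277, plus strand) lay 116.1 kb apart on chromosome 1. Bgn (chrX:73483635-73495936) and Podn (chr4:108014793-108032090, minus strand) stood alone. All are protein-coding in the annotation. Whether counting used strand is not given in the sources used here, so reads of genes that overlap on opposite strands cannot be told apart. The chromosome 13 genes lie within Cenpp, a gene on the other strand, which shared 7 exonic bases with Aspn and 0 with Omd and Ogn. Prelp shared 350 exonic bases with the antisense gene Gm15851.

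The promoter windows of the chromosome 13 neighbours are shown because these genes lie side by side and Omd moved differently from Aspn and Ogn on day 6. That of Podn is shown because it was the most rich in G and C. Each window holds the 250 bases before the RefSeq start (GRCm38.p6), read 5′ to 3′ on the gene's strand: chr13:49544193-49544442 (plus) for Aspn, chr13:49582212-49582461 (plus) for Omd, chr13:49607765-49608014 (plus) for Ogn and chr4:108031955-108032204 (minus) for Podn. Capitals mark TATAAA (or TTTATA on the other strand), the Runx core TGTGGT (or ACCACA) and the GC-rich word GGCGCC.
Aspn: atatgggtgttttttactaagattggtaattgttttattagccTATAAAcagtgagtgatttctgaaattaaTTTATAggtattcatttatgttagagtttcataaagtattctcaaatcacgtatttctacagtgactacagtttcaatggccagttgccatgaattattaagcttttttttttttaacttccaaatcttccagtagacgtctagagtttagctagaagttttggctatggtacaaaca
Omd: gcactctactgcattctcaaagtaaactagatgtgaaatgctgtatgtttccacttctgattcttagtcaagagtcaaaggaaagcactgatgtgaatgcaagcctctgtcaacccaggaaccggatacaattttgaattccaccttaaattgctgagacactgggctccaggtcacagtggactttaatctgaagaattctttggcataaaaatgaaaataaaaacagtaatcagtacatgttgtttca
Ogn: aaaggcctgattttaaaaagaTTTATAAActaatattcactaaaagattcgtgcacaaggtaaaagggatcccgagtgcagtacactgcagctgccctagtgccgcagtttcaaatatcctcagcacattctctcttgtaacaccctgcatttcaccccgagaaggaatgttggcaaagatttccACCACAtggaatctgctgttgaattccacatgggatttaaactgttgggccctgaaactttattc
Podn: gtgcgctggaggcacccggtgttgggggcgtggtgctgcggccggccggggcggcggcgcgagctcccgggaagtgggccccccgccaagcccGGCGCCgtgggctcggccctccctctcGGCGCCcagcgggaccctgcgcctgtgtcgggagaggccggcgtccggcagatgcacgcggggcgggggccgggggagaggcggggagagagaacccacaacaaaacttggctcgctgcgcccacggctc
The deposited starts of Omd and Ogn lie downstream of their RefSeq starts, and that of Podn lies inside the window shown.

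RefSeq windows were at hand for 8 of the 10 members, with 2 starts for Podn. The G and C content was 30% for Aspn, 38.4% for Omd and 42% for Ogn, 64.4% for Bgn, 51.2% for Fmod, 55.6% for Prelp, 42.4% for Kera, and 78% and 64% for the Podn starts. The median over 32851 mouse windows of that length was 52.4%, with quartiles at 45.2% and 61.2%. The first Podn window held 32 CG dinucleotides, against a median of 6. TATAAA on either strand stood in the Aspn and Ogn windows, and in 12.4% of all windows. Its 2 matches in Ogn overlap each other. The Runx core stood in the Ogn window alone among the 8 members, with its first base at position -65 from the start, and in 14% of all windows. GGCGCC, a palindrome, stood 2 times in the first Podn window and in 9.59% of all windows. The E-box CANNTG, also a palindrome, stood in 66.2% of all windows, and in those of Aspn, Ogn, Bgn, Fmod and Podn. TGANTCA, the AP-1 word, stood in 6.75% of all windows and in none of the members' windows. These matches describe letters and are not binding data.

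The libraries held 74301112 to 113744802 counts. Every count was even, so each read pair appears to have been counted once per mate. The 9 tested members had between 77 read pairs (Podn, day 1, 50 ng/ml BMP2 without GSK126, 95% Poisson interval 60.8 to 96.2) and 182278 read pairs (Bgn, day 1, 10 ng/ml BMP2 with GSK126). Such intervals cover counting error only. Levels are given as normalised RPKM, which are CPM per kilobase of the deposited coding length, with library sizes scaled by TMM (trimmed mean of M values). Rn45s, the precursor of ribosomal RNA, made up 13.1% to 21.66% of the day 6 libraries and 8.96% to 11.71% of the day 1 libraries, most of all on day 6 at 50 ng/ml BMP2 without GSK126. All 6 osteoblast markers passed the filter, and their summed level was 29208 to 81057 CPM on day 6 and 18646 to 23086 CPM on day 1. That sum was carried by Col1a1 in every library. In the day 1 vehicle library Alpl had 0.897 CPM and Bglap 0.0498 CPM. Of the other lists, 3 of 5 tendon markers passed (87.7 to 150 CPM on day 6, 87.5 to 113 CPM on day 1) and Tnmd, the defining tendon gene, stayed under 0.1 CPM in every library. Egr1 made up most of the tendon sum. Of 5 chondrocyte markers 3 passed, and Acan stayed under 0.1 CPM in every library. The chondrocyte sum was carried by Col2a1 and reached 313 to 1213 CPM with GSK126 and 91.6 to 411 CPM without it on day 6, and 2354 to 4219 CPM on day 1. No adipocyte or endothelial marker passed, and 1 of 4 muscle and 1 of 4 macrophage markers did. The part of these shifts in the results was not tested.

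On day 6 the family was a broader mix than on day 1. Lum, which spaces collagen fibrils in cornea and skin, and Omd, a keratan sulfate SLRP of bone, were nearly silent on day 1 and among the abundant transcripts on day 6. Dcn, which binds collagen and TGF-β, and Aspn, which binds collagen and BMP2, also rose, while Bgn, the main SLRP of early bone matrix, fell. Of the 9 members tested, 8 passed the test, 7 higher and 1 lower on day 6. This count is close to the background, since 78% of the 12056 genes tested passed in this comparison. The median log2 change was 1.61 over the 9 members and 0.03 over all genes tested.

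Lum had 272.9, 52.1 and 36.6 RPKM on day 6 with GSK126 at 0, 10 and 50 ng/ml BMP2, and 317.6, 85.2 and 85.7 RPKM without GSK126. On day 1 it had 1.81, 1.47 and 1.54 RPKM with GSK126, and 1.44, 1.32 and 1.24 RPKM without. Every day 6 library was thus above every day 1 library, by 6.16 ± 0.15 on the log2 scale (71.5-fold, SE, adjusted p = 1.1e-07). Adjusted p-values here and below are from edgeR's quasi-likelihood test over 12 libraries with Benjamini-Hochberg adjustment over all genes tested, and each log2 fold change is followed by its standard error.

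Omd had 104.6, 116.7 and 67.9 RPKM on day 6 with GSK126 at 0, 10 and 50 ng/ml BMP2, and 72.6, 157.9 and 163.7 RPKM without it. Its day 1 values were 1.52, 1.43 and 1.46 RPKM with GSK126, and 1.62, 1.47 and 1.23 RPKM without it. The days did not overlap, and the mean difference was 6.26 ± 0.26 on the log2 scale (76.4-fold, adjusted p = 1.1e-06).

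Dcn had 135.3, 157.9 and 557.1 RPKM on day 6 with GSK126 at the rising BMP2 doses, and 203.9, 178.1 and 951.1 RPKM without it. On day 1 it had 18.3, 13.9 and 14.9 RPKM with GSK126, and 14.4, 11.8 and 11.7 RPKM without it. The days were again apart, by 4.29 ± 0.09 on the log2 scale (19.6-fold, adjusted p = 6.7e-08).

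Aspn and Ogn rose less and not in all treatments. Aspn, which was 2.12 ± 0.20 higher on the log2 scale (adjusted p = 5.5e-05), was higher on day 6 in 5 of 6 treatments. The exception was 50 ng/ml BMP2 with GSK126, where it had 17.8 RPKM on day 6, under all 6 of its day 1 values, and 29.9 RPKM on day 1. Ogn, an SLRP first described in bone extracts, rose by 0.88 ± 0.07 (adjusted p = 2.8e-05), also in 5 of 6 treatments, and the same treatment was the exception, at 51.2 RPKM on day 6 and 51.7 RPKM on day 1.

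Prelp, a basement membrane and cartilage SLRP, rose by 0.92 ± 0.03 (adjusted p = 5.2e-07), and Podn, which binds collagen, by 1.61 ± 0.09 (adjusted p = 3.4e-06), both in 6 of 6 treatments. Bgn fell by 0.55 ± 0.07 (adjusted p = 0.00034) and was lower on day 6 in 6 of 6 treatments, at 661.0 to 1252.6 RPKM on day 6 and 1161.6 to 1263.0 RPKM on day 1. Fmod, which regulates fibril thickness and crosslinking in tendon, ran from 371.2 to 536.5 RPKM on day 6 and from 311.0 to 534.9 RPKM on day 1. Its difference of -0.03 ± 0.05 did not pass (adjusted p = 0.62), and it was higher in 3 treatments and lower in 3. With library size alone in place of TMM, Fmod passed as lower on day 6, at -0.24 (adjusted p = 0.00063), and the median of all genes shifted by -0.18 under that scaling.

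Kera, a cornea SLRP, had 1 read pair in the day 6 vehicle library, 1 in the day 6 library with GSK126 and 50 ng/ml BMP2, and 0 in the other 10. A count of 0 has a 95% Poisson interval of 0 to 3.69 read pairs, and a count of 1 has one of 0.0253 to 5.57 read pairs. The libraries with 1 and with 0 therefore cannot be told apart at this depth. For scale, 3 read pairs are 0.0486 to 0.0923 CPM per library. Its neighbours Dcn and Lum reached rank 53 and rank 134 among the 23358 rows by RPKM on day 6.

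**Figure D1:**
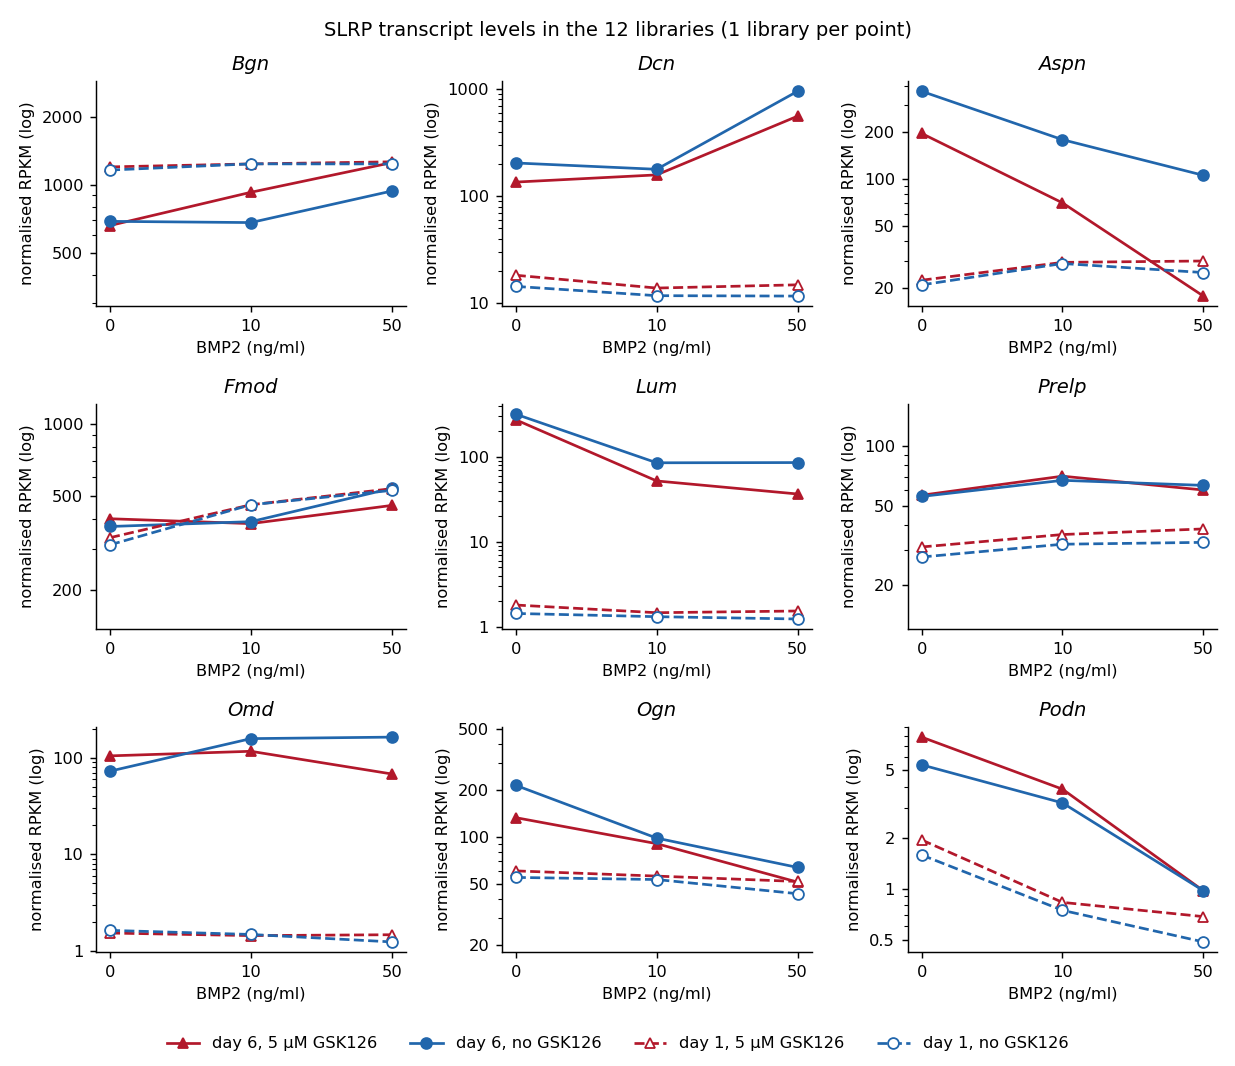
Normalised RPKM (log axis) of the 9 tested members against BMP2 dose (ng/ml), with 1 point per library, triangles for 5 µM GSK126, circles for no GSK126, filled markers for day 6 and open markers for day 1. Lum, Omd and Dcn separate the days in every treatment, whereas Aspn with GSK126 and 50 ng/ml BMP2 lies at 17.8 RPKM on day 6, below its day 1 values.

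The summed level of the family changed less than its make-up. It was 1839.6 to 2909.5 RPKM on day 6 and 1595.2 to 1936.1 RPKM on day 1. Bgn held 30.0% to 50.1% of that sum on day 6 and 65.2% to 72.8% on day 1. Fmod held 16.1% to 21.1% on day 6 and 19.5% to 28.0% on day 1, so that the other members shared a small remainder on day 1. In the day 6 vehicle library Aspn held 16.0%, Lum 13.8%, Ogn 9.39% and Dcn 8.87%. At 50 ng/ml BMP2 without GSK126 Dcn held 32.7%, Bgn 32.3%, Aspn 3.65% and Lum 2.95%. At 50 ng/ml BMP2 with GSK126 Bgn held 50.1%, Dcn 22.3%, Lum 1.47% and Aspn 0.711%. These shares are set against one another within a library and have no test.

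**Figure D2:**
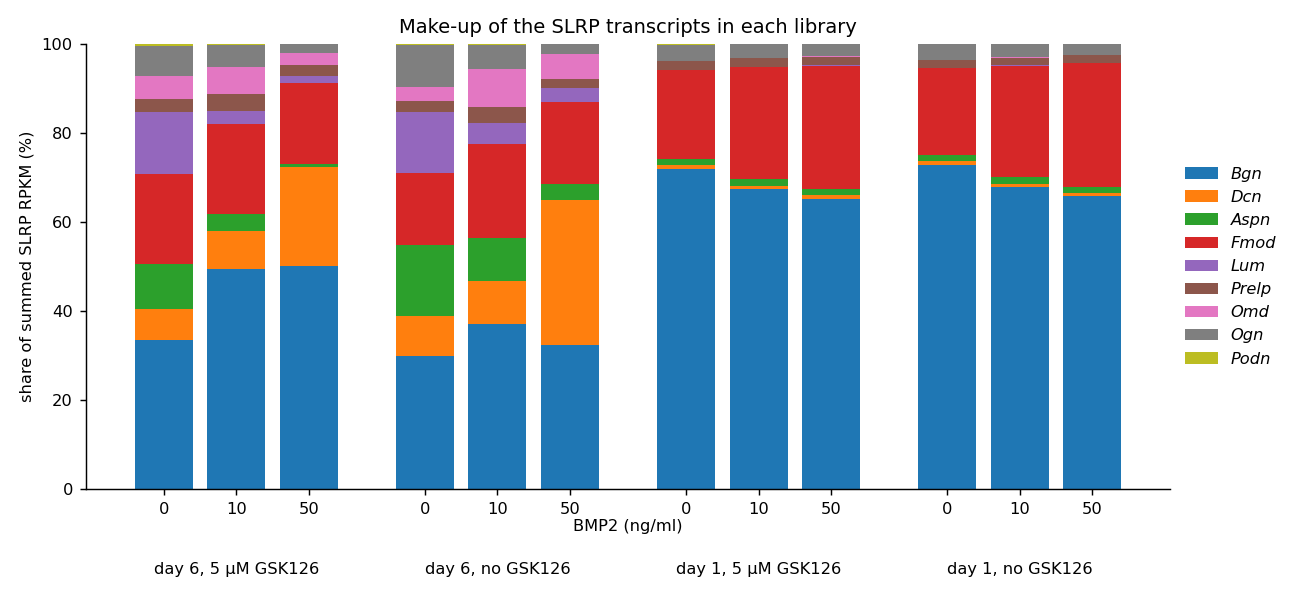
Share (%) of the summed normalised RPKM of the 9 tested members taken by each member in the 12 libraries, grouped by day and GSK126 and ordered by BMP2 dose (ng/ml). Bgn and Fmod fill nearly all of each day 1 bar, while Dcn reaches 32.7% on day 6 at 50 ng/ml BMP2 without GSK126.

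By median RPKM on day 6 the order was Bgn (808.2), Fmod (394.5), Dcn (191.0), Aspn (142.9), Omd (110.7), Ogn (94.6), Lum (85.4), Prelp (61.5) and Podn (3.54). The ranges of neighbours in that order overlapped from Fmod through Prelp, and did not overlap between Bgn and Fmod or between Prelp and Podn. On day 1 the order was Bgn (1236.2), Fmod (458.0), Ogn (54.0), Prelp (32.4), Aspn (27.0), Dcn (14.2), Omd (1.47), Lum (1.45) and Podn (0.786), and only Prelp with Aspn, Omd with Lum, and Lum with Podn overlapped. Within day 6 the highest library exceeded the lowest by 20.7-fold for Aspn, 8.67-fold for Lum, 8.1-fold for Podn and 7.03-fold for Dcn, but by 1.26-fold for Prelp.

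BMP2 split the family on day 6. Lum, Aspn, Podn and Ogn fell, while Dcn, Bgn and Prelp rose. Of the 9 members, 7 passed the test, 3 higher and 4 lower, where 28.7% of all genes tested passed. The median log2 change was 0.18 over the members and -0.002 over all genes tested. The comparison sets the mean of both doses against no BMP2, with and without GSK126. With only the 6 libraries of day 6 in the fit, 5 of the 9 members passed, where 1038 genes of the whole table did. Bgn (adjusted p = 0.14) and Prelp (adjusted p = 0.16) did not pass in that edgeR fit.

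Lum had 272.9, 52.1 and 36.6 RPKM at 0, 10 and 50 ng/ml BMP2 with GSK126, and 317.6, 85.2 and 85.7 RPKM without it, so that every library with BMP2 lay below both without. It fell by 2.28 ± 0.17 on the log2 scale (4.85-fold lower, adjusted p = 0.00025) and was lower in 4 of 4 matched comparisons. The difference between the doses over both GSK126 levels, -0.23 ± 0.20, did not pass (adjusted p = 0.49). Lum ranked 129 of 12056 genes by the size of this change.

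Aspn had 197.1, 70.6 and 17.8 RPKM at 0, 10 and 50 ng/ml with GSK126, and 367.5, 179.7 and 106.1 RPKM without it. It stepped down with each dose in both series, and fell by 1.94 ± 0.28 (adjusted p = 0.0033, lower in 4 of 4). Between the doses the difference, 50 minus 10 ng/ml, was -1.29 ± 0.34 and did not pass (adjusted p = 0.056). It passed with DESeq2 (adjusted p = 0.019), library size alone (0.019), no filter (0.041) and limma-voom (0.045). It also passed without any 1 of the day 6 libraries with vehicle, GSK126 alone, or 50 ng/ml BMP2 with or without GSK126, and ranged from -2.11 to -0.65, with adjusted p from 0.0025 to 0.22, over all libraries left out.

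Ogn stepped down in the same way, at 133.5, 90.7 and 51.2 RPKM with GSK126 and 215.9, 98.5 and 63.7 RPKM without it. It fell by 1.21 ± 0.10 with BMP2 (adjusted p = 0.00046, lower in 4 of 4), and was lower at 50 than at 10 ng/ml (log2 change -0.73 ± 0.13, adjusted p = 0.015). Without the day 6 library of 10 ng/ml BMP2 and GSK126 the dose difference was -0.53 and missed the threshold (adjusted p = 0.08).

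Podn, the least abundant of the tested members, had 7.86, 3.87 and 0.971 RPKM with GSK126 and 5.39, 3.21 and 0.972 RPKM without it. It fell by 1.82 ± 0.12 (adjusted p = 0.00016, lower in 4 of 4), and fell further at 50 than at 10 ng/ml (log2 change -1.86 ± 0.15, adjusted p = 0.0021).

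Dcn moved the other way, and at the higher dose. It had 135.3, 157.9 and 557.1 RPKM with GSK126, and 203.9, 178.1 and 951.1 RPKM without it, so that both libraries at 50 ng/ml stood above the other 4. BMP2 raised it by 1.08 ± 0.12 on average (adjusted p = 0.001), in 3 of 4 comparisons, the exception being 10 ng/ml without GSK126. At 50 ng/ml it was higher than at 10 ng/ml by 2.11 ± 0.13 (4.33-fold, adjusted p = 0.0016), rank 87 of 12056 genes by size. Its neighbour Lum fell with BMP2, but was already low at 10 ng/ml, at 52.1 RPKM with GSK126 and 85.2 RPKM without it. Between the doses, where Dcn rose, Lum did not pass (adjusted p = 0.49 by edgeR's quasi-likelihood test).

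Bgn had 661.0, 926.7 and 1252.6 RPKM with GSK126 and 689.7, 681.2 and 938.5 RPKM without it. It rose by 0.45 ± 0.11 (adjusted p = 0.023), in 3 of 4 comparisons. The call did not hold without any 1 of the 6 day 1 libraries, nor without the day 6 library of 10 ng/ml BMP2 and GSK126, with an adjusted p of at most 0.068. Leaving out the day 6 vehicle library gave 0.71, and leaving out that of GSK126 alone on day 6 gave 0.21. Prelp rose by 0.22 ± 0.05 (adjusted p = 0.017, higher in 4 of 4), which missed the threshold without the day 1 library of GSK126 alone or the day 6 library of 10 ng/ml BMP2 and GSK126 (adjusted p of at most 0.052). With library size alone Bgn was 0.30 higher (adjusted p = 0.096) and Prelp 0.07 higher (adjusted p = 0.3), and the median of all genes shifted by -0.15.

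Omd (0.42 ± 0.31, adjusted p = 0.36) and Fmod (0.18 ± 0.08, adjusted p = 0.13) did not pass for BMP2 on day 6. Omd was higher in 3 of 4 comparisons, and lower at 50 ng/ml with GSK126, where it had 67.9 RPKM. Without that library its difference was 0.78 and passed (adjusted p = 0.027), without the day 6 library of GSK126 alone it was 1.16 and passed (adjusted p = 0.01), and without the day 6 vehicle library it was -0.21 (adjusted p = 0.51). Fmod passed without the first or the second of these libraries, with an adjusted p from 0.013 to 0.58 over all libraries left out. Beside the BMP2 changes on day 6, the summed osteoblast markers, carried by Col1a1, stood at 38926 to 81057 CPM with BMP2 and 29208 to 37923 CPM without it, and all 6 rose. The chondrocyte sum was 121 to 1213 CPM with BMP2 and 91.6 to 313 CPM without it. The tendon sum was 114 to 150 CPM with BMP2 and 87.7 to 102 CPM without it, with Egr1 higher (0.53 ± 0.13, adjusted p = 0.021) and Mkx lower (-0.52 ± 0.12, adjusted p = 0.02). The muscle sum was 4.4 to 10.8 CPM with BMP2 and 2.93 to 4.56 CPM without it, with Des higher (0.94 ± 0.10, adjusted p = 0.00096). The macrophage sum was 1.47 to 2.52 CPM with BMP2 and 1.02 to 1.08 CPM without it, with Csf1r higher (1.04 ± 0.25, adjusted p = 0.022). The part of these markers in the results was not tested.

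Between the doses, 4 of the 9 members passed on day 6, Dcn and Fmod higher and Ogn and Podn lower at 50 than at 10 ng/ml, where 11.8% of all genes tested passed. Fmod had 381.7 and 455.0 RPKM at 10 and 50 ng/ml with GSK126, and 389.0 and 536.5 RPKM without it, a difference of 0.36 ± 0.09 (adjusted p = 0.046). That call was lost without any 1 of 9 libraries, namely the 6 of day 1, both of day 6 at 10 ng/ml, and day 6 at 50 ng/ml without GSK126, where it was 0.22 (adjusted p = 0.1). Bgn (0.45 ± 0.13, adjusted p = 0.065) and Prelp (-0.16 ± 0.06, adjusted p = 0.11) did not pass by edgeR's quasi-likelihood test. Bgn passed with DESeq2 (0.45, adjusted p = 0.0041), and Prelp passed as lower with library size alone (-0.30, adjusted p = 0.015), a scaling that shifted the median of all genes by -0.15. Leaving out 1 library gave 2 to 6 members, with 2 when the day 6 library of 10 ng/ml BMP2 and GSK126 was left out, and 6 when the day 6 library of vehicle, of GSK126 alone or of 50 ng/ml BMP2 alone was left out. In the 6 libraries of day 6 fitted alone, 0 of 9 passed, where 6 genes of the whole table did.

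**Figure D3:**
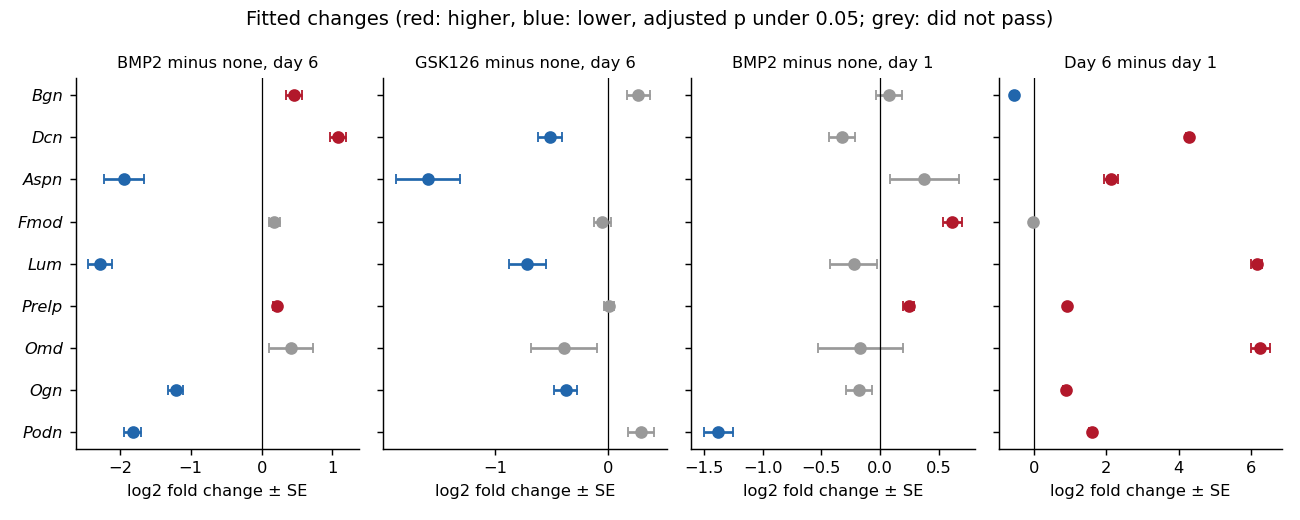
Fitted log2 fold changes (points) with standard errors (bars) of the 9 tested members for BMP2 minus none on day 6, GSK126 minus none on day 6, BMP2 minus none on day 1, and day 6 minus day 1, with red for higher, blue for lower and grey for members that did not pass at an adjusted p of 0.05. Lum, Aspn and Ogn are blue for both agents on day 6, and Dcn is red for BMP2 and blue for GSK126.

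GSK126 lowered part of the family on day 6. By edgeR's quasi-likelihood test Aspn, Lum, Dcn and Ogn fell, so that 4 of 9 passed, all lower, where 28.3% of all genes tested passed (1726 higher and 1689 lower, or 1843 higher and 1181 lower with library size alone in place of TMM). The median of the 9 members was -0.38, against -0.002 for all genes tested.

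Aspn had 197.1, 70.6 and 17.8 RPKM with GSK126 at 0, 10 and 50 ng/ml BMP2, against 367.5, 179.7 and 106.1 RPKM without it. It was lower with GSK126 at every dose, with a mean log2 change of -1.60 ± 0.28 (3.02-fold lower, adjusted p = 0.0075), rank 190 of 12056 genes by size. Single-library ratios, with no test, were 0.536 at 0, 0.393 at 10 and 0.168 at 50 ng/ml.

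Lum had 272.9, 52.1 and 36.6 RPKM with GSK126, against 317.6, 85.2 and 85.7 RPKM without it, and fell by 0.72 ± 0.16 (adjusted p = 0.019, lower in 3 of 3). The log2 change was -0.46 (adjusted p = 0.02) without either day 6 library of 50 ng/ml BMP2, and missed the threshold without either day 6 library of 10 ng/ml BMP2 (adjusted p = 0.089).

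Dcn had 135.3, 157.9 and 557.1 RPKM with GSK126, against 203.9, 178.1 and 951.1 RPKM without it, and fell by 0.51 ± 0.10 (adjusted p = 0.013, lower in 3 of 3). Dcn was the member that BMP2 raised most on day 6, and the tests of both agents passed in opposite directions. Ogn had 133.5, 90.7 and 51.2 RPKM with GSK126, against 215.9, 98.5 and 63.7 RPKM without it, and fell by 0.38 ± 0.10 (adjusted p = 0.034, lower in 3 of 3). The Ogn call was lost without any 1 of the 6 day 1 libraries or of the day 6 libraries at 50 ng/ml BMP2 (adjusted p of at most 0.07), and the log2 change was -0.21 without the day 6 vehicle library. It was also lost with library size alone (adjusted p = 0.072) and with 1 weight per day in limma-voom (0.059). With only the 6 libraries of day 6 in the fit, 0 of the 9 members passed for GSK126, where 956 genes of the whole table did, at adjusted p = 0.056 for Aspn, 0.093 for Dcn, 0.097 for Lum and 0.14 for Ogn.

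Bgn (0.27 ± 0.10, adjusted p = 0.097), Podn (0.29 ± 0.12, adjusted p = 0.1), Omd (-0.39 ± 0.29, adjusted p = 0.35), Fmod (-0.05 ± 0.07, adjusted p = 0.63) and Prelp (0.00 ± 0.05, adjusted p = 0.96) did not pass for GSK126 on day 6 by edgeR's quasi-likelihood test. Bgn passed as higher with DESeq2 (0.25, adjusted p = 0.044), and Podn with limma-voom (0.39, adjusted p = 0.021). Bgn and Omd passed without the day 6 vehicle library or that of GSK126 alone, in opposite directions, with values up to 0.44 for Bgn and down to -0.85 for Omd, and Podn passed without either day 6 library at 50 ng/ml (up to 0.41). Beside these changes, 3 of 6 osteoblast markers were higher with GSK126 on day 6, with a median of 0.50 over the list, namely Bglap (2.71 ± 0.40), Ibsp (1.71 ± 0.27) and Sp7 (0.71 ± 0.18). The summed level of all 6, carried by Col1a1, was 37923 to 81057 CPM with GSK126 and 29208 to 74652 CPM without it. The tendon sum was 102 to 150 CPM with GSK126 and 87.7 to 118 CPM without it, and Mkx was lower (-0.51 ± 0.12, adjusted p = 0.021). The muscle marker Des was higher (0.65 ± 0.09, adjusted p = 0.0029). The chondrocyte sum was 313 to 1213 CPM with GSK126 and 91.6 to 411 CPM without it, and Rn45s took 13.1% to 14.47% of counts with GSK126 and 15.4% to 21.66% without it. Their part in the results was not tested. In bulk RNA, fewer cells that express a gene and less RNA per cell cannot be told apart.

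The combination libraries were described by ratios to vehicle on day 6, each from single libraries and with no test. With GSK126 and 50 ng/ml BMP2, Aspn had 1780 read pairs (95% Poisson interval 1700 to 1860), against 40102 (39700 to 40500) with vehicle. Its ratio to vehicle was 0.0484, where the product of the ratios of each agent alone was 0.155. For Lum these were 0.115 and 0.232, and for Ogn 0.237 and 0.183. Dcn stood at 2.73 times vehicle, with a product of 3.1. Omd was 1.44 times vehicle with GSK126 alone and 2.25 times with 50 ng/ml BMP2 alone, but 0.935 times with both, where the product was 3.25. At 10 ng/ml Omd stood at 1.61 times vehicle with both agents, with a product of 3.13. Bgn was 0.958 times vehicle with GSK126 alone, 1.36 times with 50 ng/ml BMP2 alone and 1.82 times with both, with a product of 1.3.

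The interaction of GSK126 with any BMP2 was fitted with both doses pooled, so genes that differ between the doses have a large error in it. By edgeR's quasi-likelihood test 0 of 9 members passed on day 6, where 0% of all genes tested passed, and 0 of 9 on day 1, where 0.00829% did (1 gene). DESeq2 and limma-voom also called 0 members on either day. At an unadjusted p under 0.05 there were 2 members on day 6 and 0 on day 1. These were Omd (-1.33 ± 0.40, unadjusted p = 0.0141, adjusted p = 0.41) and Lum (-0.73 ± 0.27, unadjusted p = 0.0307, adjusted p = 0.49). Aspn, with its steep dose series, had -0.79 ± 0.99 (adjusted p = 0.83).

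**Figure D4:**
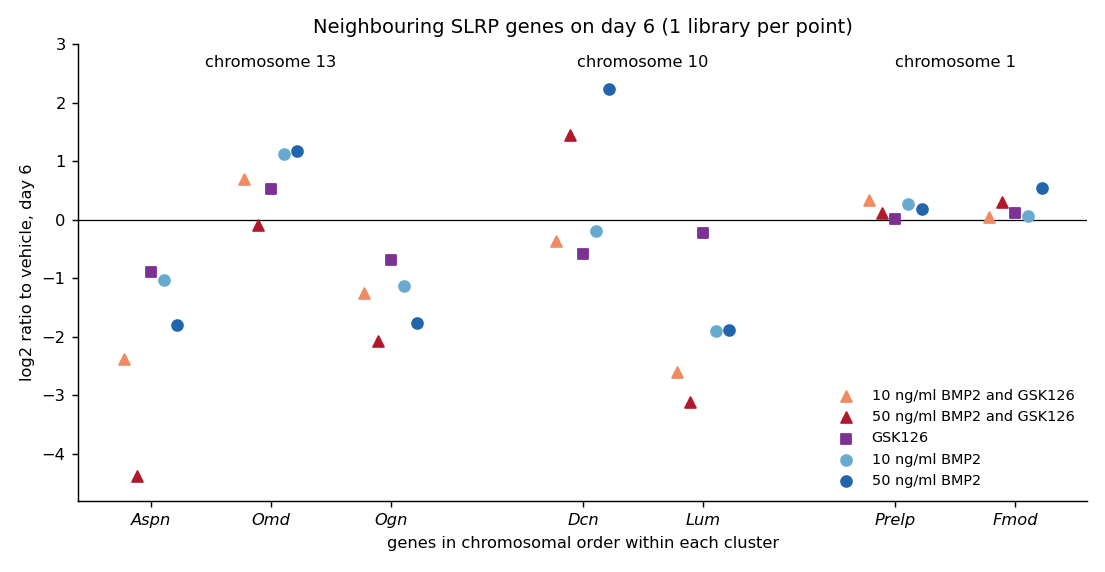
Log2 ratio to vehicle of the neighbouring members on day 6, by chromosome and in chromosomal order, with triangles for both agents, squares for GSK126 alone, circles for BMP2 alone and 1 library per point. Aspn and Ogn lie below 0 in every treatment while Omd, between them, lies above 0 in all but the combination at 50 ng/ml, and Lum lies below 0 while its neighbour Dcn reaches its highest values at 50 ng/ml.

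Neighbours in the genome did not all share a pattern across the day 6 treatments. Over the 6 libraries of day 6, Pearson's r of log2 CPM was 0.871 between Aspn and Ogn, 0.247 between Aspn and Omd and -0.213 between Omd and Ogn. It was -0.441 between Dcn and Lum and 0.032 between Fmod and Prelp. The most alike pairs of tested members lay on different chromosomes, at 0.874 for Aspn with Lum, 0.884 for Ogn with Lum and 0.931 for Dcn with Fmod. So did the most opposed pairs, at -0.94 for Aspn with Bgn and -0.929 for Dcn with Podn. The neighbours Aspn and Ogn, at 0.871, came next among the alike pairs, close to Aspn with Lum. On day 1 the neighbours had other values. These were -0.193 for Aspn with Ogn, -0.358 for Aspn with Omd, 0.833 for Omd with Ogn, 0.982 for Dcn with Lum and 0.816 for Fmod with Prelp. All of these values describe the 6 libraries of 1 day, which share treatments and scaling, and have no test.

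On day 1 Fmod and Prelp rose with BMP2 and Podn fell, so 3 of 9 members passed, 2 higher and 1 lower, where 3.66% of all genes tested passed. Podn had 1.94, 0.829 and 0.683 RPKM at 0, 10 and 50 ng/ml with GSK126, and 1.58, 0.744 and 0.484 RPKM without it, a log2 change of -1.38 ± 0.12 (2.6-fold lower, adjusted p = 0.0034, lower in 4 of 4). Podn was lower with BMP2 on both days. Fmod had 333.2, 458.0 and 534.9 RPKM with GSK126 and 311.0, 457.9 and 526.1 RPKM without it, and rose by 0.61 ± 0.08 (adjusted p = 0.012, higher in 4 of 4). Prelp had 31.0, 35.8 and 38.2 RPKM with GSK126 and 27.6, 32.0 and 32.7 RPKM without it, and rose by 0.24 ± 0.05 (adjusted p = 0.047, higher in 4 of 4). Aspn (0.38 ± 0.29, adjusted p = 0.53), Dcn (-0.33 ± 0.11, adjusted p = 0.18), Ogn (-0.18 ± 0.11, adjusted p = 0.4), Lum (-0.22 ± 0.20, adjusted p = 0.58), Omd (-0.17 ± 0.36, adjusted p = 0.84) and Bgn (0.07 ± 0.11, adjusted p = 0.76) did not pass. Without the day 1 library of vehicle or of GSK126 alone 0 members passed for BMP2 on day 1, where 1 and 2 genes of the whole table did, and Podn was then at an adjusted p of at most 0.14. Without any 1 of the 4 day 1 libraries with BMP2, 1 member (Podn) passed, where 52 to 66 genes did. Prelp alone was also lost without the day 6 library of 10 ng/ml BMP2 with or without GSK126. The Prelp call did not hold with library size alone (adjusted p = 0.1) or with no filter on low counts (0.051).

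Both days share 1 spread in the fit. With 1 weight per day in limma-voom 6 members passed for BMP2 on day 1, where 4052 genes of the whole table did, and with the 6 day 1 libraries alone 7 members and 4697 genes did. Among these Aspn was higher (0.38, adjusted p = 7.2e-06) and Dcn lower (-0.33, adjusted p = 3.1e-05) in the fit on day 1 alone, each in the direction opposite to its day 6 change.

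For GSK126 on day 1, 0 of 9 members passed by edgeR's quasi-likelihood test, where 0% of all genes tested passed and 755 genes had an unadjusted p under 0.05. The 3 members at an unadjusted p under 0.05 were Prelp (0.18 ± 0.05), Dcn (0.31 ± 0.11) and Podn (0.31 ± 0.12), all with an adjusted p of 0.79 and higher with GSK126 at 3 of 3 doses. DESeq2 and limma-voom called 0 members, limma-voom with 1 weight per day called 2 members and 586 genes in all, and the fit on day 1 alone called 4 members and 2030 genes. Between 50 and 10 ng/ml on day 1, 0 of 9 members passed where 0% of all genes tested passed, with 1 member (Podn, -0.44 ± 0.15) and 398 genes at an unadjusted p under 0.05, 0 members by DESeq2 or limma-voom, and 2 members and 1180 genes in the fit on day 1 alone.

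The change with each agent was then compared between the days in 1 test. For BMP2, 4 of 9 members differed, where 9.14% of all genes tested did. Day 6 minus day 1, the BMP2 effect was -2.32 ± 0.42 for Aspn (adjusted p = 0.019), -2.05 ± 0.27 for Lum (adjusted p = 0.0063), -1.03 ± 0.15 for Ogn (adjusted p = 0.011) and 1.40 ± 0.16 for Dcn (adjusted p = 0.004). Fmod (-0.44 ± 0.11, adjusted p = 0.056) and Podn (-0.44 ± 0.17, adjusted p = 0.17) missed the threshold by edgeR's quasi-likelihood test. Fmod passed with DESeq2 (adjusted p = 0.0027), with library size alone (0.0096), without the filter (0.038) and with limma-voom without (0.047) and with 1 weight per day (0.018), so that 5 members differed in each of these settings. Without the day 1 library of vehicle or of GSK126 alone 0 of 9 members differed, where 104 and 118 genes of the whole table did, with adjusted p-values up to 0.15 for Aspn, 0.1 for Ogn, 0.078 for Lum and 0.056 for Dcn, and without the day 6 vehicle library 7 did. Aspn was also lost without any 1 of the other day 1 libraries or the day 6 library of 10 ng/ml BMP2 and GSK126.

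For GSK126, 2 of 9 members differed between the days, where 10.5% of all genes tested did. The effect, day 6 minus day 1, was -1.72 ± 0.39 for Aspn (adjusted p = 0.037) and -0.82 ± 0.15 for Dcn (adjusted p = 0.018). Lum (-0.98 ± 0.25, adjusted p = 0.053) and Ogn (-0.54 ± 0.14, adjusted p = 0.064) missed the threshold by edgeR's quasi-likelihood test. Both passed with DESeq2 (adjusted p = 0.00018 for Lum and 0.0043 for Ogn) and with day weights in limma-voom (0.034 and 0.026), and Lum passed with library size alone (0.032) and without the filter (0.041). Without any 1 of the 6 day 1 libraries 0 of 9 members differed, where 342 to 398 genes of the whole table did, and Dcn was then at an adjusted p of at most 0.091 and Aspn of at most 0.14. Aspn was also lost without either day 6 library of 10 ng/ml BMP2. Without the day 6 library of vehicle or of GSK126 alone 5 members differed.

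For each member, the 3 genes outside the family with the most similar pattern over the 12 libraries were found by Pearson's r of log2 CPM after the mean of each day was removed, among tested genes that averaged 5 CPM or more. Aspn was closest to Ankrd29 (0.988), Adra1b (0.987) and Col12a1 (0.987), a collagen that associates with fibrils. Lum was closest to Ttyh3 (0.986), Armcx2 (0.977) and Thbs2 (0.964), a matricellular thrombospondin. Ogn was closest to Arsb (0.982), a lysosomal sulfatase that acts on dermatan sulfate, Lpar4 (0.981) and Etnk1 (0.976). Podn was closest to Mme (0.975), the cell-surface protease neprilysin, Phf17 (0.971) and Sema3e (0.962). Fmod was closest to Tbl2 (0.982), Slc25a32 (0.979) and P4hb (0.974), a subunit of prolyl 4-hydroxylase. Bgn was closest to Lgr6 (0.982), Peli2 (0.98) and Hipk1 (0.978), Dcn to Itfg3 (0.967), Srgap2 (0.95) and Dopey2 (0.939), Omd to Fam198b (0.956), Mras (0.946) and Csrp1 (0.936), and Prelp to Trappc4 (0.903), Arpc1b (0.869) and Alg14 (0.846). These are the highest of many correlations over libraries that share treatments and scaling.

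Related genes were described from named lists by counts and medians. On day 6, 28.7% of all genes tested passed for BMP2 and 28.3% for GSK126, with a median log2 change of -0.002 in each. Of 9 further SLRP-like genes 3 passed the filter, and BMP2 lowered 1 of them on day 6, Ecm2 (-0.57 ± 0.11, adjusted p = 0.0095), a leucine-rich matrix protein gene. On day 6 Podnl1, the closest relative of Podn, had 6.5, 5.04 and 8.1 CPM with GSK126 at 0, 10 and 50 ng/ml BMP2, and 6.07, 5.22 and 11.2 CPM without it. It was higher at 50 than at 10 ng/ml (0.90 ± 0.13, adjusted p = 0.0096), where Podn was lower.

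Of 19 tested genes that build chondroitin or dermatan sulfate chains, 9 passed for BMP2 on day 6, 5 higher and 4 lower, and 6 for GSK126, 4 higher and 2 lower. The medians were 0.07 and 0.14, against -0.002 for all genes in both comparisons. The shares over all genes tested were 28.7% for BMP2 and 28.3% for GSK126, so the GSK126 count is near the background. Csgalnact1, an enzyme that starts chondroitin chains, was lower with BMP2 on day 6 (-2.47 ± 0.18, adjusted p = 0.00028) at low levels, with 3.56, 0.816 and 0.751 CPM at the rising doses with GSK126 and 5.26, 1.05 and 0.554 CPM without it. Chst11, a chondroitin 4-sulfotransferase, rose with both agents on day 6, by 1.00 ± 0.20 for GSK126 (adjusted p = 0.011) and 0.93 ± 0.22 for BMP2 (adjusted p = 0.019), and had 93.5, 125 and 137 CPM with GSK126 and 30.5, 62.5 and 104 CPM without it.

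Of 7 tested genes for keratan sulfate chains, 3 passed for BMP2 on day 6, 1 higher and 2 lower, and 4 for GSK126, 2 higher and 2 lower, with medians of -0.09 and 0.15, beside 28.7% and 28.3% of all genes tested. Chst2, a sulfotransferase, was lower with BMP2 (-2.59 ± 0.32, adjusted p = 0.0018) and with GSK126 (-1.11 ± 0.33, adjusted p = 0.045), at 27.2, 5.24 and 6.6 CPM with GSK126 and 83.9, 16.8 and 5.94 CPM without it. St3gal1, a sialyltransferase, was higher with BMP2 (1.71 ± 0.15, adjusted p = 0.00047) and with GSK126 (1.49 ± 0.13, adjusted p = 0.00046).

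Of 28 fibrillar collagen and fibril assembly genes, 17 passed for BMP2 on day 6, 8 higher and 9 lower, and 11 for GSK126, 4 higher and 7 lower, with medians of 0.08 and -0.05, beside 28.7% and 28.3% of all genes tested. Col3a1, the collagen that forms mixed fibrils with type I, was lower with GSK126 (-1.09 ± 0.21, adjusted p = 0.011), and Col5a3 was lower with BMP2 (-1.25 ± 0.16, adjusted p = 0.002). In contrast, Col11a2 was higher with GSK126 (1.69 ± 0.44, adjusted p = 0.028) and with BMP2 (1.94 ± 0.49, adjusted p = 0.026). Loxl4 was higher with GSK126 (1.16 ± 0.13, adjusted p = 0.0012), and Lox with BMP2 (1.23 ± 0.30, adjusted p = 0.024). Col1a1 and Col1a2, the type I chains, were higher at 50 than at 10 ng/ml on day 6 (0.81 ± 0.12, adjusted p = 0.0096, and 0.78 ± 0.12, adjusted p = 0.011), as Dcn and Fmod were.

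Of 10 tested proteases that can cleave SLRPs, 6 passed for BMP2 on day 6, 1 higher and 5 lower, with a median of -0.42, and 5 for GSK126, 1 higher and 4 lower, with a median of -0.08. Over all genes tested 28.7% and 28.3% passed, with a median of -0.002 in both. Htra1, a secreted serine protease, was lower with BMP2 (-1.65 ± 0.21, adjusted p = 0.002), and Tll1, which can process the propeptides of class I SLRPs, was lower too (-3.13 ± 0.21, adjusted p = 0.00018), at 10.1, 1.63 and 0.751 CPM with GSK126 and 7.09, 1.73 and 0.369 CPM without it. Bmp1, on the same list, went the other way, at 130, 180 and 244 CPM with GSK126 and 93.2, 148 and 250 CPM without it. It was higher at 50 than at 10 ng/ml on day 6 (0.60 ± 0.11, adjusted p = 0.018). Mmp13, collagenase 3, was higher with GSK126 (3.04 ± 0.70, adjusted p = 0.019), with 26.8, 32.3 and 29.8 CPM, against 13.3, 0.944 and 2.55 CPM without it.

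Of 17 tested genes for ligands and receptors that SLRPs bind, 10 passed for BMP2 on day 6, 5 higher and 5 lower, with a median of 0.03, and 6 for GSK126, 2 higher and 4 lower, beside 28.7% and 28.3% of all genes tested. The GSK126 count is near that background. Tgfb1 rose with BMP2 (1.25 ± 0.13, adjusted p = 0.00098) and with GSK126 (0.61 ± 0.12, adjusted p = 0.011), while its receptor Tgfbr2 fell by 1.13 ± 0.14 with BMP2 (adjusted p = 0.0015) and by 0.46 ± 0.13 with GSK126 (adjusted p = 0.04). Egfr, a receptor that decorin binds, fell by 1.98 ± 0.21 with BMP2 (adjusted p = 0.00096). Tlr2, a receptor for soluble biglycan, rose with GSK126 (0.62 ± 0.05, adjusted p = 0.00026). Of 14 tested other proteoglycans, 7 passed for BMP2 on day 6, 4 higher and 3 lower, and 7 for GSK126, 5 higher and 2 lower, with medians of -0.09 and 0.13, beside the same 28.7% and 28.3%. Vcan, the large proteoglycan versican, was lower with GSK126 (-0.96 ± 0.07, adjusted p = 0.00018), and Cspg4 was higher with GSK126 (1.08 ± 0.26, adjusted p = 0.022) and with BMP2 (1.34 ± 0.29, adjusted p = 0.015).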

How the data were processed

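RNA sequencing of 12 libraries of MC3T3 sc4 cells was used, 1 per condition. The authors deposited gene counts made with bcl2fastq, TopHat2 2.0.6 and HTSeq on mm10, per the submitters' processing notes. For strand and annotation the settings were not given in the sources used here. All 195176 counts above 0 were even. The authors also deposited RPKM values, which were not used for the levels or tests given here. CPM and normalised RPKM were computed from the counts with TMM scaling and the deposited coding length.

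Tests used edgeR 4.0.16 (quasi-likelihood) in R 4.3.3 on the deposited counts, with TMM, at least 1 CPM in at least 2 libraries (12056 genes), and Benjamini-Hochberg adjustment at 0.05. Each standard error was derived from the test, as the absolute log2 fold change divided by the square root of the quasi-likelihood F statistic. The fit held, within each day, an intercept, a GSK126 term and 1 term per BMP2 dose (8 coefficients, 4 residual degrees of freedom). A second fit of the same size held 1 mean for each combination of day, GSK126 and any BMP2, and was used for the interaction. On simulated counts of 12056 genes for GSK126 on day 6, 98% of changes of 1 on the log2 scale were recovered. For changes of 2 the share was 95%. The share of false calls was 3.98% for GSK126 and 3.48% for BMP2 on day 6, and 6.19% for GSK126 on day 1. Whether these shares hold at the spread of the 12 libraries was not tested. Totals of 74301112 to 113744802 counts set the precision. Alternatives were DESeq2 1.42.0, limma-voom 3.58.1 with and without 1 weight per day, library size alone, other filters, counts halved to read pairs, each day alone, and each library left out. The authors' gene symbols were used, and promoters came from RefSeq.

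The members, gene lists and markers were chosen with earlier results of these data known. Named genes were the 10 members, up to 3 called genes of largest change per list and comparison, and the 3 genes most like each member.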

Additional observations from a re-analysis of the deposited data

Results flagged for a closer look

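For 2 members the effect of GSK126 differed between the days by edgeR's quasi-likelihood test of the difference. Day 6 minus day 1, it was -1.72 ± 0.39 for Aspn (adjusted p = 0.037) and -0.823 ± 0.15 for Dcn (adjusted p = 0.018). Aspn stood at 17.8 to 197.1 RPKM with GSK126 and 106.1 to 367.5 RPKM without it on day 6, and at 22.5 to 29.9 RPKM with GSK126 and 21.0 to 28.8 RPKM without it on day 1.

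For 4 members the effect of BMP2 differed between the days by the same test with Benjamini-Hochberg adjustment. Day 6 minus day 1, it was -2.316 ± 0.42 for Aspn (adjusted p = 0.019), -1.032 ± 0.15 for Ogn (adjusted p = 0.011), 1.405 ± 0.16 for Dcn (adjusted p = 0.004) and -2.054 ± 0.27 for Lum (adjusted p = 0.0063). None of the 4 passed for BMP2 on day 1 in the shared fit by edgeR, and Aspn, Ogn and Dcn did in the fit on the 6 day 1 libraries only.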

How the results depend on the processing

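No paired analysis was possible because each condition has 1 library and the labels number no replicates across conditions. Over the members, 561 of the values under other settings kept their direction and side of the threshold, 18 lost the threshold, 34 gained it and 8 changed sign. When 1 library was left out these were 821, 72, 34 and 27. With each day fitted alone, which leaves fewer libraries, 0 members passed for GSK126 on day 6 (956 genes of the whole table), 4 for GSK126 on day 1 (2030 genes), 5 for BMP2 on day 6 (1038 genes, with Bgn at an adjusted p of 0.14 and Prelp at 0.16), 7 for BMP2 on day 1 (4697 genes), 0 between the doses on day 6 (6 genes) and 2 on day 1 (1180 genes). limma-voom with 1 weight per day gave 2 members for GSK126 on day 1 (586 genes), 6 for BMP2 on day 1 (4052 genes) and 4 for the GSK126 difference between days (1470 genes), and DESeq2 gave 4 for that difference. Signs changed at small values: GSK126 on day 6 for Prelp was -0.009 with DESeq2, and the GSK126 difference between days for Podn was 0.091 with limma-voom, 0.105 with day weights and 0.007 on halved counts. The interaction on day 6 was 0.097 for Dcn and 0.089 for Prelp with library size alone, and 0.113 and 0.115 for Dcn with limma-voom without and with day weights. The cause was not tested.

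With 1 library left out, the members called ranged from 8 to 8 between the days, 3 to 6 for GSK126 and 5 to 9 for BMP2 on day 6, 0 to 3 for BMP2 on day 1, 2 to 6 between the doses on day 6, 0 to 5 for the GSK126 difference and 0 to 7 for the BMP2 difference between days, and 0 to 0 for the rest. Log2 changes that crossed 0 ranged as follows. Fmod: -0.077 to 0.017 between days and -0.132 to 0.041 for GSK126 on day 6. Omd: -0.851 to 0.045 and -0.063 to 0.105 for GSK126 on day 6 and day 1, -0.215 to 1.16 for BMP2 and -1.041 to 0.274 between doses on day 6, and -0.891 to 0.004 and -0.052 to 1.327 for the GSK126 and BMP2 differences between days. Lum: -0.637 to 0.127 between doses on day 6. Podn: -0.151 to 0.103 for the GSK126 difference. Prelp: -0.029 to 0.046 for GSK126 on day 6 and -0.057 to 0.006 for the BMP2 difference. For the interaction on day 6 they were -1.247 to 1.597 for Dcn, -1.657 to 0.777 for Podn and -0.141 to 0.09 for Prelp.

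The 9 tested members rested on 77 or more read pairs per library. For Kera, a count of 0 allows up to 3 read pairs in a library.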
